A study of Mus musculus with 2 samples.

Results

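The phagocyte NADPH oxidase genes described here are 6 of the 22184 genes measured by a probe set of their own, namely Cybb, Cyba, Ncf1, Ncf4, Rac1 and Rac2. They were taken as a named list of subunits, by gene symbol. Each was read by 1 probe set, and no probe set naming several genes covered any of them. The cells were inflammatory monocytes from the lamina propria of the colon of C57BL/6 mice, either wild type (WT) or Nlrp6-/-. Nlrp6 encodes an NLR protein that can assemble inflammasomes. All mice had received the carcinogen azoxymethane (AOM, 10 mg/kg), and from day 5 they drank 2% dextran sodium sulfate (DSS), an irritant that damages the gut lining, for 5 days. Cells were taken on day 10. The sort kept CD11b+ Ly6C-high cells without CD3, a T cell marker, or Ly6G, a neutrophil marker. The labels give neither the age of the mice nor the number that contributed to each RNA, and they do not say whether the genotypes were littermates or shared a cage.

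The oxidase is dormant in resting phagocytes. Its membrane part, flavocytochrome b558, consists of the catalytic chain gp91phox (NOX2, from Cybb) and its partner p22phox (from Cyba). On stimulation cytosolic proteins, among them p47phox (Ncf1) and p40phox (Ncf4), join it together with a GTP-bound Rac protein, and electrons pass from NADPH to oxygen to give superoxide. Inherited loss of these subunits causes chronic granulomatous disease, in which phagocytes kill microbes poorly and colitis is frequent.

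Each genotype was represented by 1 Affymetrix array, so without replicates the differences carry neither errors nor p-values and describe these 2 arrays only. Values are log2 levels from robust multiarray average (RMA), and differences are Nlrp6-/- minus WT. A gene counted as measured if it lay on at least 1 array above a detection floor, set at the 95th percentile of levels of olfactory and vomeronasal receptor genes, which was 3.26 in WT and 3.22 in Nlrp6-/-. That left 9527 genes. Nlrp6 was below the floor on both arrays, at 2.32 and 2.67, so it did not check the genotype labels, while Ly6c2, which encodes the sorted antigen, was at 9.06 and 9.36. Of 14 monocyte markers, 13 were measured, with Ly6c1 below the floor on both arrays. Of the 13, 7 were higher and 6 lower, with a median difference of 0.07, and F13a1 was past 1.5-fold higher (1.06). The summed linear level of the 14 was 7843 in WT and 7572 in Nlrp6-/-.

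All 6 subunit genes were well above the floor on both arrays, by 4.14 to 7.25 log2 units. All 6 were lower in Nlrp6-/- by some amount, as were 48.4% of all measured genes. None of the 6 reached a 1.5-fold difference in either direction, a size that 9.27% of measured genes reached (6.21% higher, 3.05% lower). The median difference of the subunits was -0.17, against 0.01 over all measured genes. The 2 genes of the membrane part had the largest differences and Ncf4 and Rac2 the smallest.

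**Figure D1:**
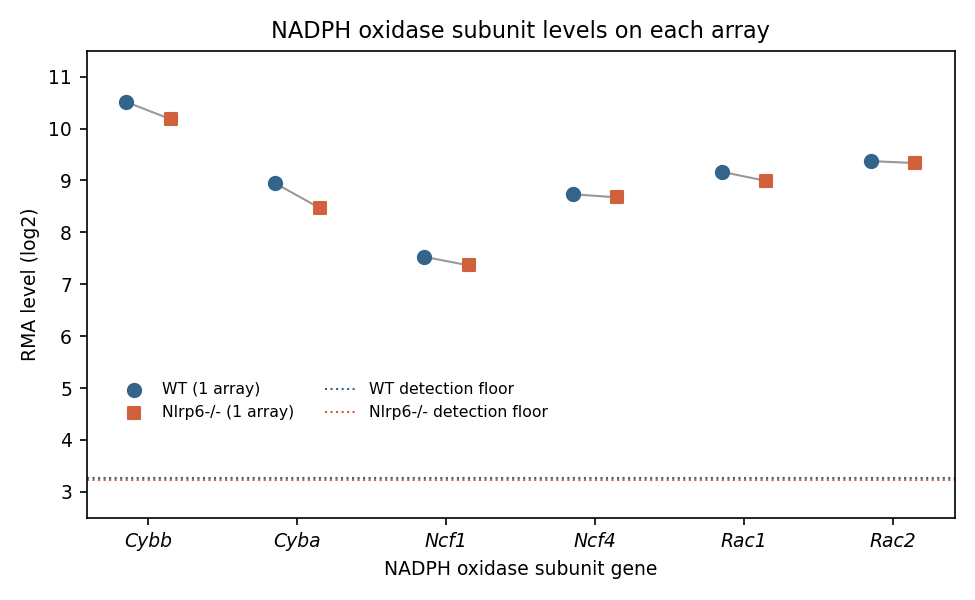
RMA levels (log2, vertical axis) of the 6 subunit genes on the WT array (circles) and the Nlrp6-/- array (squares), with each array's detection floor as a dotted line. Each pair slopes down from WT to Nlrp6-/-, most for Cyba (8.95 to 8.47) and least for Rac2 (9.37 to 9.34). Heights of different genes come from different probes and are not comparable.

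Cyba, whose product anchors and stabilises the catalytic chain and offers the docking site for p47phox, was at 8.95 in WT and 8.47 in Nlrp6-/-. The difference of -0.48 corresponds to 71.7% of the WT level, or 1.39-fold lower. It was the largest of the 6, and 6.57% of measured genes had a lower difference. Cybb, which encodes the chain that carries the electrons, had a level of 10.51 in WT and 10.18 in Nlrp6-/-. Its difference was -0.33, or 79.3% of the WT level, and 13.8% of measured genes had a lower one. At a smaller threshold, a log2 difference of 0.32, these 2 genes were the only members past it, both lower, where 13.2% of measured genes were lower by as much. After subtraction of a loess curve Cybb was just short of that threshold and only Cyba passed it.

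Ncf1, the organiser subunit that is phosphorylated on activation, was at 7.53 in WT and 7.36 in Nlrp6-/-. The difference was -0.17, or 89.1% of the WT level. Ncf4, which binds the phagosome lipid phosphatidylinositol 3-phosphate, was at 8.73 and 8.67. Its difference of -0.06 left it at 95.9% of the WT level. The difference of Ncf1 was thus 0.11 log2 units lower than that of Ncf4, and both were smaller than those of the membrane pair.

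The Rac GTPases act in many other processes, such as actin remodelling and migration. Rac1, present in most cell types, was at 9.17 in WT and 8.99 in Nlrp6-/-. The difference was -0.18, or 88.5% of the WT level. Rac2, largely restricted to blood cells and the main Rac of the mouse neutrophil oxidase, was at 9.37 and 9.34. At -0.04, or 97.5% of the WT level, it had the smallest difference of the list, and 90.7% of measured genes lay at least as far from 0. Without the Rac genes the median of the other 4 members was -0.25.

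The spread available to judge these sizes comes from within the same arrays and not from replicate mice. The differences of 1391 receptor genes near background had an SD of 0.19, and those of all measured genes an SD of 0.39. Cyba and Cybb lay farther from 0 than the first SD, and only Cyba farther than the second. Of the receptor genes, 1308 lay below the floor on both arrays, so the first SD was not taken at the subunits' levels. Where a gene had more than 1 probe set over the floors of both arrays (422 genes), their differences lay apart by a median of 0.31 and by 0.79 at the 90th percentile. Cyba and Cybb exceeded that median and none of the 6 exceeded the 90th percentile. With a single probe set each, this source of error could not be checked for the subunits.

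**Figure D2:**
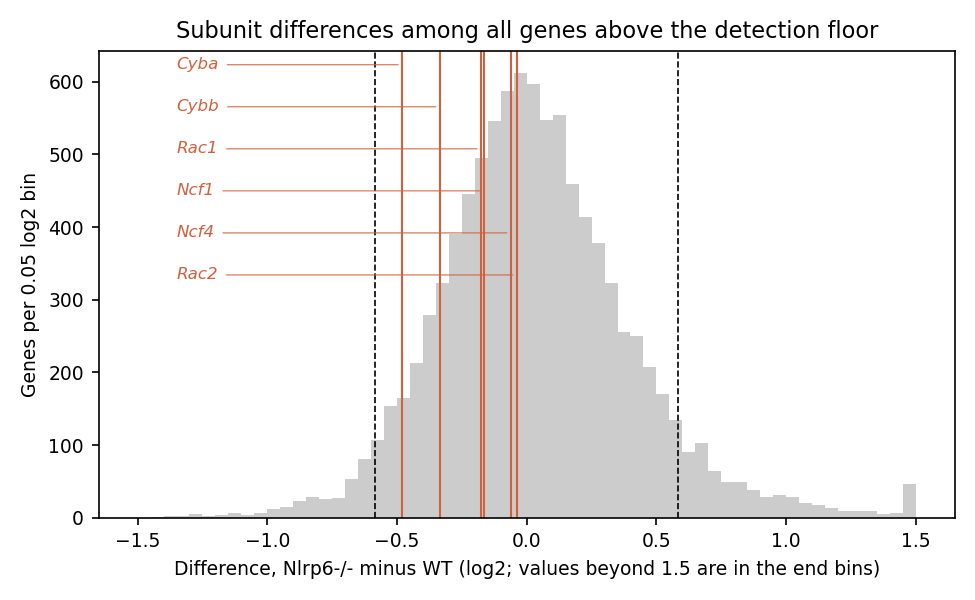
Number of measured genes (vertical axis, grey bars) by their difference in log2 level, Nlrp6-/- minus WT (horizontal axis, bins of 0.05), with each subunit gene as a vertical line and the 1.5-fold limits dashed. All 6 lines lie left of 0 and inside the limits, from -0.48 for Cyba to -0.04 for Rac2.

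In sorted cells measured in bulk, fewer cells of a type and less RNA per cell cannot be told apart. Several other cell types carry the oxidase, including neutrophils, eosinophils and B cells. Most of their measured markers were higher in Nlrp6-/-, whereas the measured dendritic cell markers were lower. Of all 9527 measured genes, 4912 were higher. Of 17 neutrophil markers, 10 were measured and 8 of these were higher in Nlrp6-/-, and the summed linear level of the 17 was 815 in WT and 1101 in Nlrp6-/-. The granule genes Mpo, Elane, Camp, Ltf and Ngp reached the floor on neither array, and Ly6g was at 3.32 and 3.58. Other granule genes were measured, with Lcn2 at 6.90 in WT and 7.77 in Nlrp6-/- and Mmp8 at 7.09 and 6.92. Prtn3 (3.72) and Retnlg (5.21) were above the floor in Nlrp6-/- only. Of 6 eosinophil markers, 2 were measured and both were higher, Prg2 at 4.15 and 5.62 and Ccr3 at 3.32 and 3.88. The 6 had summed levels of 47.1 and 84.0, with Siglecf and Epx below the floor. The 6 measured of 9 B and plasma cell markers were higher, with summed levels of 738 and 1338 and with Ms4a1 and Pax5 below the floor. Among the measured ones, Jchain was at 9.22 and 10.09 and Mzb1 at 5.22 and 6.84. All 12 measured of 14 epithelial markers, from cells that do not use this oxidase, were higher too, with summed levels of 328 and 734. Of 11 stromal and endothelial markers, all measured, 8 were higher, with summed levels of 702 and 1293. Of 9 T and NK cell markers, 6 were measured and 4 of these were higher, with summed levels of 469 and 493. Of 7 dendritic cell markers, 2 were measured and both were lower, with summed levels of 367 and 327 and with Flt3 and Zbtb46 below the floor. The part of these cells in the subunit differences was not tested.

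Promoter sequence was examined for the subunits in the RefSeq table of mouse build GRCm38.p6, which held Cybb, Cyba and Ncf1, 3 of the 6. The 250 bases before the annotated start are printed because the 2 largest differences belong to Cybb and Cyba, and because Cybb and Ncf1 are classical interferon-responsive genes of myeloid cells. Sequences run 5′ to 3′ on the gene's strand. Capitals mark matches, on either strand, to GAAANNGAAA, the core of the interferon-stimulated response element, or to GGGCGG, the GC box. The Cybb sequence is chrX:9469325-9469574, Cyba is chr8:122432941-122433190 and Ncf1 is chr5:134229626-134229875, all on the minus strand.
Cybb: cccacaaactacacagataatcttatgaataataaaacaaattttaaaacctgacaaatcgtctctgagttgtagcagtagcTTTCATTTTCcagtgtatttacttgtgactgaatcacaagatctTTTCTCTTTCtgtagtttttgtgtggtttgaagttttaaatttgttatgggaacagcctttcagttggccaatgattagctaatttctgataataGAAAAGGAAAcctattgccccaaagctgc
Cyba: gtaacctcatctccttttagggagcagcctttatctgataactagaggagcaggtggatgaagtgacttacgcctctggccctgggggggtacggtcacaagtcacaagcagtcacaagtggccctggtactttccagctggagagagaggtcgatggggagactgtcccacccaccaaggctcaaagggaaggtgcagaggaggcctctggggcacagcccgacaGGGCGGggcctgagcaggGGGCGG
Ncf1: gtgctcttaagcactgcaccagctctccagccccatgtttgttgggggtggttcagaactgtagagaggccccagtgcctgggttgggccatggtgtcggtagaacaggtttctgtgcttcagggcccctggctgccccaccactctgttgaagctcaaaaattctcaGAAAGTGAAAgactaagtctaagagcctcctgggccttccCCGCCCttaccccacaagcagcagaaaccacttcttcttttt

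The Cybb sequence held 3 matches to the interferon element core and the Ncf1 sequence held 1, at 82 to 73 bases before the start. The Cybb matches began 168, 124 and 29 bases before the start. The Cyba sequence held none, and 2.98% of all 32851 promoter windows of this length held at least 1. Of 3 GC boxes, 2 were in Cyba, the first beginning 24 bases before the start, and 1 in Ncf1, and 32.7% of windows held one. No marked matches overlapped. The letters GAGGAA, a longer form of the GGAA core bound by the myeloid factor PU.1, were not in these 3 windows. Neither was TGANNNNGC, the core of the antioxidant response element. Of all windows, 23.3% held the first and 35.2% the second. The shorter GGAA was not counted, and it does occur, as within the capitals GAAAAGGAAA of Cybb.

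Proteins that assemble, stabilise or balance the oxidase were examined next, with 7 of 10 listed genes measured, a median of -0.13 and a mean of 0.16. The 2 past 1.5-fold were S100a8 and S100a9, whose calprotectin complex binds arachidonate and enhances oxidase assembly in neutrophils. S100a8 was at 6.44 in WT and 7.60 in Nlrp6-/-, higher by 1.16, and S100a9 was at 5.99 and 7.01, a difference of 1.03. Both are also neutrophil markers in the list above. Pla2g4a, the phospholipase that releases arachidonate, was at 7.11 and 6.63, and Hvcn1, the proton channel that offsets the charge of electron transfer, was at 4.15 and 3.80. Their differences of -0.48 and -0.35 were within 1.5-fold. Cybc1, the chaperone of the membrane pair, was at 5.46 and 5.25, or -0.21, and was named after its value was seen.

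Regulators of Rac and related GTPases had a median of -0.01 over 17 measured of 22 listed genes. Past 1.5-fold, 0 were higher and 2 lower. The lowest was Abr, which switches Rac off by stimulating GTP hydrolysis, at 8.59 in WT and 7.64 in Nlrp6-/- (-0.95). Srgap2, another GTPase-activating protein, was at 7.32 and 6.70, or -0.62. Vav1, an exchange factor that loads Rac with GTP, differed by -0.41 and Arhgap15 by 0.45. Arhgap15 too encodes a GTPase-activating protein, so genes of that kind lay on both sides of 0. With the floor at the 99th percentile the list median was -0.20, and the mean with the usual floor was -0.08.

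Kinases and lipid signalling proteins that activate the oxidase had a median of -0.32 over 14 measured of 19 listed genes. Of the 14, 10 were lower, as were 48.4% of all measured genes. With the 1 gene below a floor taken at its bound, the median was -0.26, and the mean of the measured differences was -0.17. Only Plcg2, a phospholipase C downstream of Fc and lectin receptors, passed 1.5-fold, at 6.32 in WT and 5.70 in Nlrp6-/- (-0.62). Mapk14 (p38), which phosphorylates p47phox in human neutrophils, was at 5.36 and 4.83, a difference of -0.54. Syk, the kinase upstream of Plcg2, was at 8.30 and 7.85, and Pik3cg, the phosphoinositide kinase used by chemoattractant receptors, was higher at 6.44 and 6.98.

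Receptors that trigger the oxidase had a median of -0.07 over 15 measured of 16 listed genes. Of the 15, 10 were lower, against 48.4% of all measured genes. Clec7a, the beta-glucan receptor dectin-1, was at 8.37 in WT and 7.74 in Nlrp6-/- (-0.63). Fcgr1, the high-affinity IgG receptor, was at 7.05 and 7.93, a difference of 0.88. These were the 2 past 1.5-fold, and they went in opposite directions. Card9, an adaptor below dectin-1, differed by 0.57 and Tlr4, the endotoxin receptor, by -0.36, both within the limit.

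Supply of NADPH, the electron donor, showed the largest single difference among the related genes on the low side. Pgd, the NADPH-producing 6-phosphogluconate dehydrogenase of the pentose phosphate pathway, was at 9.24 in WT and 8.16 in Nlrp6-/-. This was a difference of -1.08. Only 0.325% of measured genes were at least 2-fold lower. The transaldolase Taldo1 was at 7.71 and 7.31 and the ribulose-phosphate epimerase Rpe at 4.61 and 5.02, both within 1.5-fold. Rpia, the ribose-phosphate isomerase, was above the floor in Nlrp6-/- only, at 3.59, which bounds its difference at 0.33 or more. Over the 6 measured of 10 listed genes the median was -0.17, with 1 lower and 0 higher past 1.5-fold.

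Enzymes that remove superoxide and peroxide had a median of 0.06 over 13 measured of 16 listed genes. Catalase, Cat, was at 6.05 in WT and 5.22 in Nlrp6-/- (-0.83). The thioredoxin reductase Txnrd1 was at 9.08 and 8.43, a difference of -0.65. The peroxiredoxin Prdx4, which resides in the endoplasmic reticulum, was higher by 0.83, at 4.21 and 5.04, and mitochondrial Prdx3 differed by 0.51. Past 1.5-fold the list thus had 2 lower genes and 1 higher gene.

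**Figure D3:**
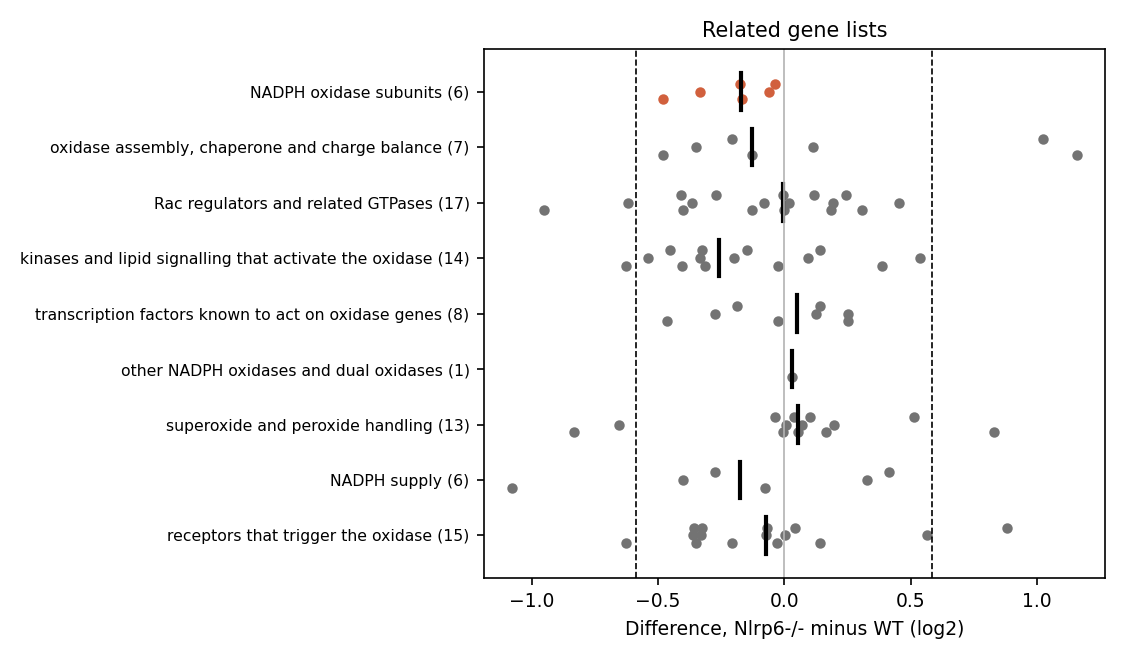
Difference in log2 level, Nlrp6-/- minus WT (horizontal axis), of each measured gene in the subunit list and the 8 related lists, with the number of genes in brackets, black bars at list medians and 1.5-fold limits dashed. A gene below the floor on 1 array is drawn at its bound, offsets within a row carry no value, and the 6 subunits lie between -0.48 and -0.04 while each list with over 1 gene except theirs spans 0.

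Other members of the NOX family were at background. Nox1, Nox3 and Nox4, the cofactor Noxa1, Duox1 and the maturation factor Duoxa1 were below the floor on both arrays, with levels from 2.30 for Nox4 in WT to 3.07 for Noxa1 in Nlrp6-/-. Duox2, the dual oxidase of colon epithelium, was below it in WT at 2.69 and just above it in Nlrp6-/- at 3.29, so that its difference is bounded at 0.03 or more. Cybb was thus the NOX-family catalytic gene above the floor on both arrays among the 6 measured by a probe set of their own.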

How the data were processed

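RNA of sorted Ly6C-high colon monocytes was measured on 2 Affymetrix Mouse Gene 2.1 ST arrays, 1 per genotype, grouped by the labels. Per the labels' protocols, 10 ng of RNA was amplified and the authors computed log2 RMA levels with the oligo package in R 2.15.1. RMA equalises the arrays' distributions, so a shift of all transcripts cannot be seen. The deposited log2 table holds 41345 probe sets.

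Probe sets were named from the platform annotation, of which 23525 had 1 gene symbol, 1810 several and 16010 none, and the brightest single-symbol probe set represented a gene. A level below the floor was taken at the floor, or at its own value if higher, for fold counts, while medians used measured levels unless stated. With 1 array per genotype no test was run, and their number limits the precision. Named genes were all subunits, Nlrp6, the other NOX genes and, in each related list, every gene past 1.5-fold or the 4 farthest from 0. Marker genes, Cybc1, Spi1, Irf8, the promoters and the motifs lay outside this rule, and the promoters and motifs were chosen after the values were seen. The members and lists were chosen with earlier results of these data known. Calculations used Python 3.11.15, pandas 2.3.3 and statsmodels 0.14.6, and were tested on simulated arrays. Alternatives were 3 normalizations, other floors, folds and probe summaries.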

Additional observations from a re-analysis of the deposited data

How the results depend on the processing

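Subtracting the median difference, renewed quantile normalization, subtracting a loess curve (span 0.3), averaging probe sets, a floor at the 99th percentile and no floor each left all 6 subunits lower and none past 1.5-fold. Over these settings Cyba ranged from -0.49 to -0.46, Cybb from -0.35 to -0.32 and Rac2 from -0.05 to -0.02. The subunit median ranged from -0.25 (without Rac1 and Rac2) to -0.15 (loess). The count of lower subunits depended on the fold: 2 at a log2 difference of 0.32 (1 after loess, where Cybb was just inside it), 0 at 1.5-fold and 0 at 2-fold. The assembly list's mean was 0.16 against a median of -0.13, since S100a8 and S100a9 lie far above the rest. Without a floor the median of the other NOX genes was 0.19. No paired analysis was possible because each genotype had 1 array. Every subunit was far above background. The lack of replicates and the single probe set per gene limit these values, and the part of other cells in them was not tested.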

Other observations

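Transcription factors known to act on oxidase genes showed no common direction. Of 13 listed, 8 were measured. In Nlrp6-/- 4 were lower and 4 higher, none past 1.5-fold, and the differences had a median of 0.05 and a mean of -0.02. Cebpa, a factor of early myeloid development, was at 4.74 in WT and 4.28 in Nlrp6-/-, the largest difference at -0.46. Irf1, an interferon-induced activator, was at 7.48 and 7.21, Cebpb at 7.04 and 7.29, and Elf1, an ETS-family factor, at 7.35 and 7.60. Spi1, which encodes PU.1, differed by -0.02 and Irf8 by 0.12, both named after their values were seen.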
